A study of Mus musculus with 60 samples.

Results

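Mammary glands of ovariectomized mice given estrogen alone were set directly against glands of ovariectomized mice given progesterone alone, to find the genes that tell the 2 single hormones apart. The samples were chosen by their titles, which gave 24 of the 60 arrays of the series, from 8 of its 20 animals, and all probe sets other than controls were taken. The groups were 4 mice that received 2 µg of 17-beta-estrogen a day (E) and 4 mice that received 1 mg of progesterone a day (P), injected into the abdominal cavity for 4 days. Levels were also placed against 5 mice given both hormones at these doses (E+P), epithelium-free fat pads of 3 mice given both (E+P CFP), and 4 mice given 100 µl of sesame oil (V). All mice lacked their ovaries, the main source of both hormones, and lymph nodes had been taken out of the glands. The labels state neither strain nor age. The glands were whole tissue, so epithelium, fat and stroma were measured together. Fewer cells of a type and less RNA per cell cannot be told apart in such samples.

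Estrogen and progesterone act through nuclear receptors, which bind DNA and switch genes on or off once the hormone is bound. Within the mammary epithelium both receptors sit in a subset of luminal cells, and much of the response of neighbouring epithelial cells is passed on by secreted signals. Estrogen is known for elongating the ducts and for raising the progesterone receptor, and progesterone for side branching and for preparing the lobules for milk production.

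In this comparison 13 of 23067 tested probe sets passed a Benjamini-Hochberg adjusted p of 0.05 in limma (0.0564%), all 13 higher in E and none lower. They stood for 11 named genes among 12234 (0.0899%) and 2 probe sets without a gene symbol. The genes were the iodide transporter Slc5a5, the water channel Aqp5, the prostaglandin carrier Slco2a1, the secretory pathway protein Tmed3, the luminal markers Krt19 and Cd24a, the melanosome transport protein Mlph, the peroxidase Gpx3, the aldehyde dehydrogenase Aldh3a2, the transcription factor Mycl and the exchange factor Plekhg2. Gpx3 and Tmed3 kept their calls when any 1 of the 20 animals was left out, and so did the unnamed probe set 99915_at. Values are scaled intensities, which compare animals for 1 probe set but not 1 probe set with another, and differences are log2 E minus P ± the standard error of limma. At an unadjusted p under 0.05 there were 869 probe sets higher and 955 lower in E, and the smallest adjusted p on the lower side was 0.0765.

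**Figure D1:**
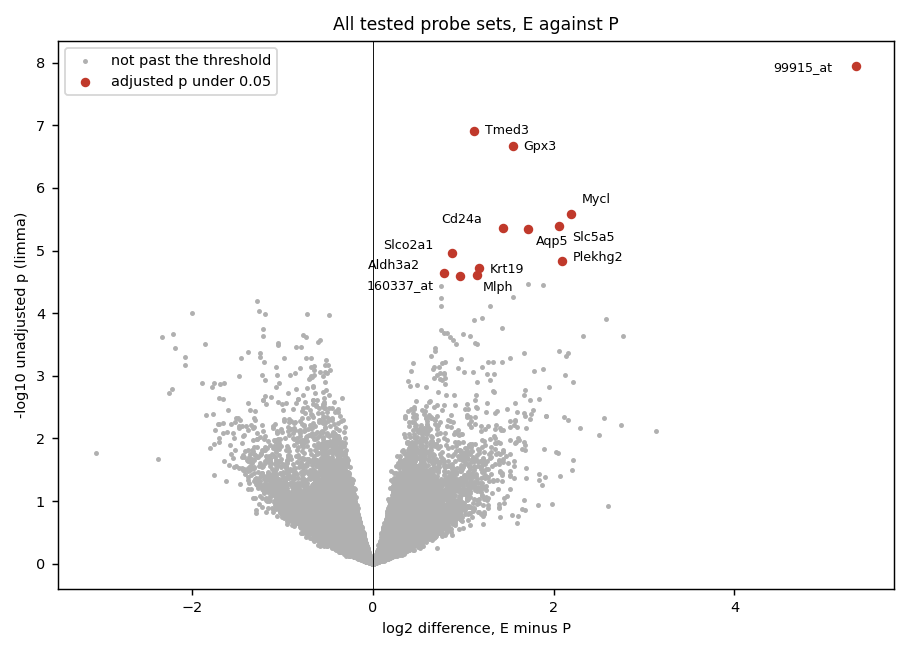
Log2 difference, E minus P (horizontal axis), against -log10 of the unadjusted p from limma (vertical axis) for the 23067 tested probe sets. The 13 probe sets past the threshold (red) all lie on the right, higher in E, and probe set 99915_at lies farthest out at 5.35.

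The glands matched their label: Krt8 and Krt18, keratins of luminal cells, lay between 848 and 1820 and between 1020 and 2026 in E, between 585 and 1008 and between 918 and 1151 in P, and below 20 in the fat pads. Adipoq, the adipocyte hormone adiponectin, was bright throughout, between 6380 and 9042 in E and between 9134 and 12476 in P. Some animals differed in other cells. The 23 tested lymphocyte and plasma cell markers summed to between 4476 and 14212 in E, against 998 to 6449 in P and 874 to 7900 in V. P 4 held the lowest sum of its group, with 8 markers at the floor set for dim values, and no E animal had a marker at that floor. The mean log2 deviation over these markers was -1.43 in P 4, and -1.50, -1.41 and -1.45 in V 1, V 2 and V 3. In E+P it was -1.18, 0.78, -1.25, 0.66 and -1.48. V 4 was at 1.36 and also had the highest Slc5a5 and Aqp5 of its group. Any link between these was not tested. Skeletal muscle markers, 18 of them tested, summed to between 1321 and 7319 in E, with E 1 highest, against 1588 to 2219 in P. RNA degradation raises the ratio of the Gapdh control signals at the 3' and 5' ends, which was 1.49 ± 0.21 in E and 2.05 ± 0.50 in P on array type A (SD, n = 4 each). An exact permutation test, two-sided, gave p = 0.114 for it, where 4 against 4 animals allow no p below 0.0286. The part of these differences in the results was not tested beyond fits that carried the lymphocyte score, the muscle score or the Gapdh ratio, which called 5, 7 and 9 probe sets. Of the 13 probe sets, 4 were still called with the lymphocyte score, 6 with the muscle score and 8 with the Gapdh ratio. All 13 differences stayed positive. They were at 89.4% to 108% of their size with the lymphocyte score and 87.4% to 109% with the muscle score. With the Gapdh ratio they were at 81.7% to 112%.

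The proximal promoters of the called genes are shown because the 2 hormones act through receptors that bind DNA, and because these genes were high together. RefSeq promoters on GRCm38.p6, from 250 bases before to 50 after the start of the gene, were matched for 9 of the 11 genes, all except Krt19 and Cd24a. Printed 5′ to 3′ on the strand of the gene are Gpx3 (chr11:54902604-54902903, plus strand) and Tmed3 (chr9:89704994-89705293, minus strand), whose calls were the most stable. Mycl (chr4:122995681-122995980, plus strand) and Mlph (chr1:90914850-90915149, plus strand) follow because their P level also lay farthest below V among the called genes. Capitals mark matches, on either strand, to the SP1 box GGGCGG or to TGTTCT, the half-site that progesterone and glucocorticoid receptors share.
Gpx3: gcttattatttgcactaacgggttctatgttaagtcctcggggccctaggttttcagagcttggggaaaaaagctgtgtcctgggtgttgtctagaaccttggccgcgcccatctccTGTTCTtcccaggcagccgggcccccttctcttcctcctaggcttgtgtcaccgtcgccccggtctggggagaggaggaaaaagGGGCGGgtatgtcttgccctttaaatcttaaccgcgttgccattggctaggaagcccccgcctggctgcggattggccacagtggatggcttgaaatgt
Tmed3: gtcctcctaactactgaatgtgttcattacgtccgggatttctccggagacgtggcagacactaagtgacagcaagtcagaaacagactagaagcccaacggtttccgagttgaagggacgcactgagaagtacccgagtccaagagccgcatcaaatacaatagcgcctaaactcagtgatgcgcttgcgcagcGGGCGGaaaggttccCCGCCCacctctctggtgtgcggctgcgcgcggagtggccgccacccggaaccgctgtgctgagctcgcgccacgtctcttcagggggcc
Mycl: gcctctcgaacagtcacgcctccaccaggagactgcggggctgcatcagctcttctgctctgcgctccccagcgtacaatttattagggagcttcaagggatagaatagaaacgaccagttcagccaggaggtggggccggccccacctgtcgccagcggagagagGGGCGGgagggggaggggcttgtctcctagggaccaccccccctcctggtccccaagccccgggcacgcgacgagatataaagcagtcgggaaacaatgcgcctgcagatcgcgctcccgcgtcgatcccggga
Mlph: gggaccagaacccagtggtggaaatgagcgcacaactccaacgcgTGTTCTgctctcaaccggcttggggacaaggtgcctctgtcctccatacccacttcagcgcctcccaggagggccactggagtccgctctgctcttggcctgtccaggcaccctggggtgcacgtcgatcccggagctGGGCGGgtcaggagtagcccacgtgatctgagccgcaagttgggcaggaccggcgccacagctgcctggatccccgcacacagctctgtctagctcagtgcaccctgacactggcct

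No match to the palindromic estrogen response element or to its half-site AGGTCA was found on either strand in the 9 promoters. The shares were 0.07% and 16.3% of 32851 mouse promoters of the same length, and 0% and 13.2% of the promoters of tested genes. The full palindromic element of the progesterone and glucocorticoid receptors was also not among their letters (0.475% of all promoters and 0.297% of those of tested genes). At these shares, absence from 9 promoters cannot tell the called genes from the rest. Its half-site TGTTCT was present in 3, those of Gpx3, Mlph and Plekhg2, against 19% of all promoters and 12.8% of the 12448 promoters of tested genes. The SP1 box GGGCGG was present in 9 of 9, against 35.7% of all promoters and 59% of those of tested genes. These windows hold only the proximal promoter, and the motifs were chosen with results known.

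Among the transport and secretion genes, Slc5a5 showed the widest separation. Slc5a5 is the sodium-iodide symporter, which concentrates iodide in the thyroid and, in lactation, in mammary cells. It had intensities of 1413, 1153, 1137 and 1283 in E, against 319, 249, 348 and 283 in P. Every E animal was far above every P animal. The difference was 2.06 ± 0.34 (adjusted p = 0.0149). The V animals had 349.8, 289, 445 and 1135, so 3 of 4 lay near P and V 4 near E.

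Aqp5, a water channel of secretory epithelia such as salivary gland, had 639, 488, 496 and 568 in E, against 179, 266, 98.8 and 158 in P. All E animals were higher than all P animals, by 1.72 ± 0.29 (adjusted p = 0.0149). The V animals had 223, 262, 246 and 482, so 3 of 4 lay inside the P range and V 4 between the groups. Slco2a1, which carries prostaglandins across the cell membrane, had 422, 649, 532 and 461 in E, against 312, 258, 286 and 258 in P. Its groups did not overlap and differed by 0.88 ± 0.16 (adjusted p = 0.0311). Another probe set of Slco2a1 differed by 0.58 ± 0.35 without passing (adjusted p = 0.723). Tmed3, a p24 family protein of vesicles between endoplasmic reticulum and Golgi, had 1430.1, 1009.8, 1100.0 and 1441 in E, against 612, 543, 582 and 530.4 in P. The P animals kept within a narrow band and every E animal was well above it, with a difference of 1.12 ± 0.14 (adjusted p = 0.00140). The promoter of Tmed3, printed above, held 2 SP1 boxes, 55 and 40 bases before the start.

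The luminal marker list, genes that mark the hormone-sensing and secretory layer of the epithelium, held 2 of the 11 called genes. Of its 21 tested members 2 were called higher and none lower, 14 had a positive difference, and the median was 0.37 beside -0.004 over all tested genes. At an unadjusted p under 0.05, 8 members were higher, beside 4.25% of all tested genes, and 4.26% of all tested genes were lower. Cd24a, a cell surface glycoprotein used to sort mammary epithelium, had 1735, 1414, 1657 and 1464 in E, against 540.4, 461, 771 and 573 in P. Its groups were far apart, by 1.44 ± 0.23 (adjusted p = 0.0149). Krt19, a keratin of luminal cells, had 1736, 1259.5, 1696 and 2680.0 in E, against 917, 772, 594 and 902 in P. No values overlapped, and the difference was 1.18 ± 0.21 (adjusted p = 0.0433). A further probe set of Krt19 differed by 1.43 ± 0.31 without passing (adjusted p = 0.128).

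Some other luminal genes pointed the same way without passing the test, and others did not. Ehf, Cdh1, Kit, Spint1, Elf5, Epcam and Muc1 had negative differences, from -0.32 to -0.07. Foxa1 and Gata3 were nearly level, at 0.03 and 0.02. Prom1, a membrane protein of luminal cells that sense hormones, had 464, 305, 375 and 242 in E, against 165, 148, 172 and 109 in P, a difference of 1.20 ± 0.25 with no overlap (adjusted p = 0.101). The keratins Krt7 and Krt8 each differed by 0.79 and 0.78 (adjusted p = 0.196 for both), and Krt18 by 0.58 (adjusted p = 0.360), with E and P animals overlapping in all 3. In E 2 the luminal score was 0.10, inside the P range of 0.02 to 0.21, while the other E animals scored between 0.54 and 0.82 and the V animals between 0.27 and 0.61. Summed over the 21 members, the markers ranged from 7511 to 12738 in E, 6193 to 6867 in P and 6806 to 8963 in V. Their part in the higher Krt19 and Cd24a signals was not tested.

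Mlph, which links melanosomes and secretory granules to the motor protein myosin, had 265, 245, 221 and 201 in E, against 163, 80.6, 92.4 and 96.0 in P. All E animals were higher, by 1.16 ± 0.21 (adjusted p = 0.0460), though P 1 lay closer to E than the rest. The V animals had 244, 242, 168 and 239, so 3 of 4 lay inside the E range and V 3 between the groups, next to P 1. Another probe set of Mlph differed by 0.80 ± 0.54 without passing (adjusted p = 0.745).

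Gpx3 and Aldh3a2 are enzymes that deal with oxidised lipids and peroxides. Gpx3, the secreted glutathione peroxidase found in plasma, had 7874, 7137, 6816 and 7759.6 in E, against 3956, 2564, 1685 and 2395 in P. The E animals were close to each other and all above the highest P animal, with a difference of 1.55 ± 0.20, or 2.92-fold (adjusted p = 0.00164). A dimmer probe set of Gpx3 on array type C gave -0.55 ± 0.37 (adjusted p = 0.748), so the probe sets of this gene disagreed in direction. Aldh3a2, which oxidises long-chain fatty aldehydes, had 324, 226, 259.9 and 223 in E, against 157, 148, 138 and 150.2 in P. The groups were separate by 0.78 ± 0.14 (adjusted p = 0.0460), the smallest called difference. Another probe set of Aldh3a2 differed by 0.33 ± 0.27 without passing (adjusted p = 0.801).

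The peroxidase and redox list did not move as a block. Of 19 tested members 1 was called, Gpx3, and 5 had a positive difference, with a median of -0.13. The glutathione transferase Gstt1 had 113, 85.9, 127 and 183 in E, against 246, 260.2, 231 and 276 in P, a difference of -1.05 ± 0.24 (adjusted p = 0.140). Gpx8, a glutathione peroxidase of the endoplasmic reticulum, had 1319, 1047, 1263 and 972 in E, against 1968, 1924, 2539 and 1614 in P, a difference of -0.80 ± 0.19 (adjusted p = 0.145). Both had all E animals below all P animals, opposite to Gpx3, and neither passed. They were the only 2 members apart in that direction, beside 2.46% of all tested genes. In the other direction 3 members had all E animals above all P animals, Gpx3 and Gclm among them, beside 2.47%. At an unadjusted p under 0.05, 2 members were higher and 3 lower in E, beside 4.25% and 4.26% of all tested genes. Gclm, the regulatory subunit of the enzyme that starts glutathione synthesis, differed by 0.42 ± 0.16 (adjusted p = 0.493).

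Mycl and Plekhg2 are regulators. Mycl, a MYC family transcription factor, had 204, 139.9, 167 and 205 in E, against 20.3, 27.5, 71.4 and 56.5 in P. Every P animal was below every E animal, and the difference of 2.19 ± 0.34 was the largest among the 11 called genes (adjusted p = 0.0148). Plekhg2, a guanine nucleotide exchange factor, had 157, 344, 198 and 287 in E, against 60.1, 56.1, 44.6 and 61.7 in P. It was higher in all E animals by 2.09 ± 0.38 (adjusted p = 0.0371), and the V animals, between 63.0 and 85.0, lay near P.

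The largest difference of all belonged to probe set 99915_at, which has no gene symbol in the platform annotation. It had 636, 359, 733 and 667 in E, against 16.1, 9.8, 5.6 and 12.5 in P. The probe set was bright in every E animal and dim in every P animal, 3 of which lay at the floor of 13.6. The difference of 5.35 ± 0.58 is therefore a lower bound of its size (adjusted p = 0.000256). It was also dim in V, at 8.3, 15.3, 10.1 and 53.5, and uneven in E+P, at 122, 782, 113, 96.3 and 716. The other unnamed probe set, 160337_at, had 338, 479, 377 and 369 in E, against 229, 212, 161 and 197 in P, a difference of 0.97 ± 0.18 with no overlap (adjusted p = 0.0460).

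**Figure D2:**
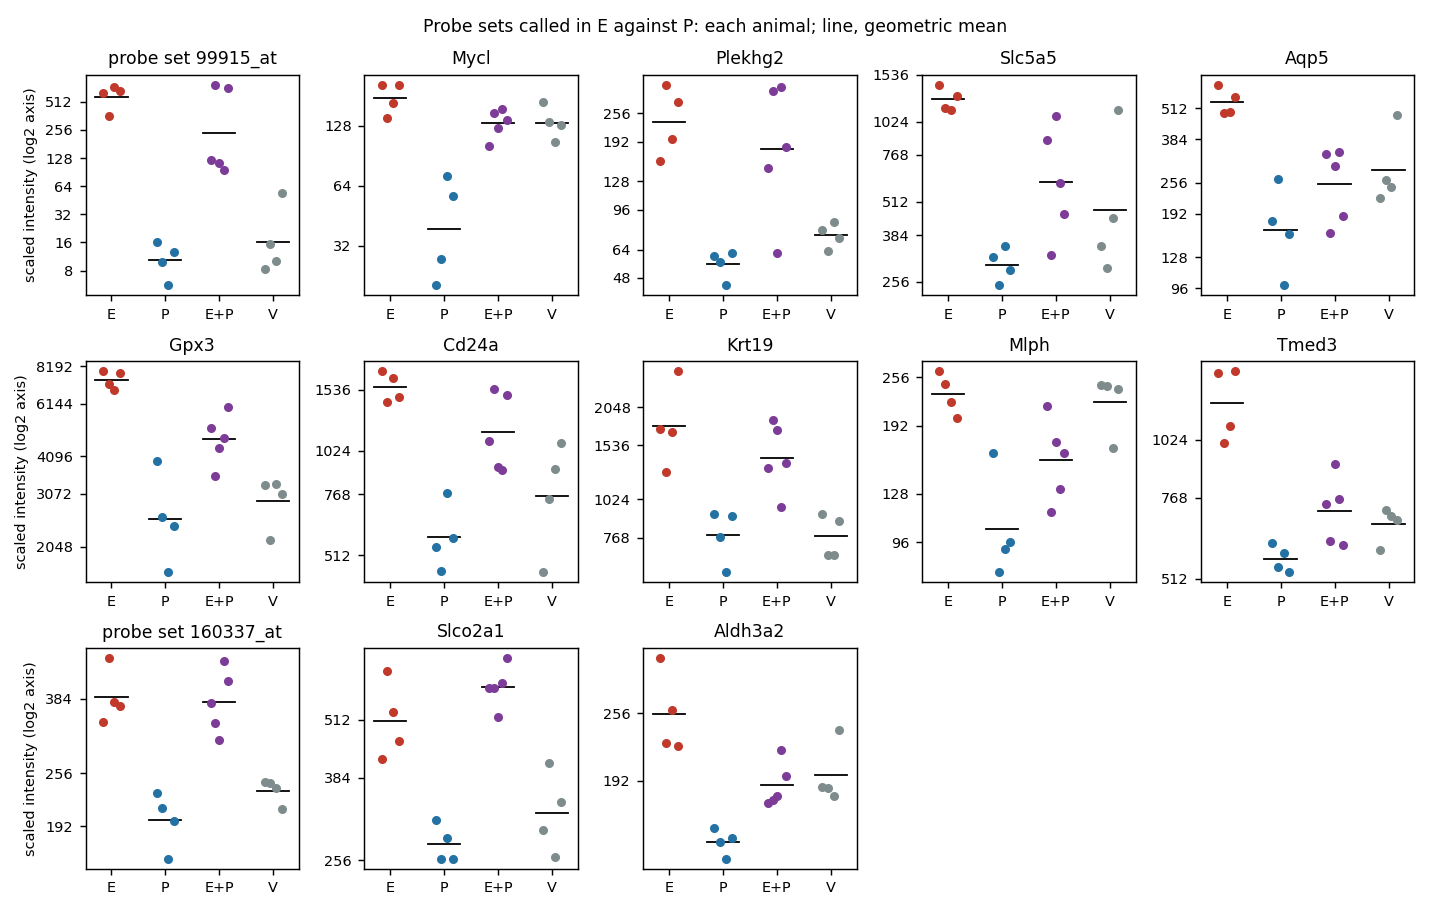
Scaled intensity on a log2 axis in each animal for the 13 probe sets called in E against P, with E, P, E+P and V from left to right and lines at geometric means. In every panel the E points lie above all P points, while V lies near P for Plekhg2 and Krt19 and 3 of 4 V animals lie with E for Mlph.

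Vehicle animals show on which side each hormone lay. These comparisons share the E, P or V animals with one another, so their values are set side by side and no overlap is read from them. In E against V, 42 probe sets were called (0.182%), 19 higher (0.0824%) and 23 lower, among them 4 of the 13, all higher in E. Those were 99915_at, Gpx3 at 1.34 (adjusted p = 0.00743), Tmed3 at 0.87 (adjusted p = 0.00864) and Krt19 at 1.19 (adjusted p = 0.0185). In P against V no probe set was called by limma (0%), with a smallest adjusted p of 0.0649 and 1861 probe sets at an unadjusted p under 0.05.

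The called genes had unequal positions around V on the log2 scale. Relative to V, Mycl was at 0.42 in E (adjusted p = 0.673) and at -1.77 in P (adjusted p = 0.0923). Mlph was at 0.07 in E (adjusted p = 0.930) and at -1.09 in P (adjusted p = 0.0923). For both, E lay close to V and P below it by value, without passing. Krt19, by contrast, was at 1.19 in E and 0.02 in P. Over all 13 probe sets the difference from V had a median of 0.92 in E, from 0.07 to 4.87, and of -0.41 in P, from -1.77 to 0.02.

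Glands given both hormones used no E and no P animal. In E+P against V, 107 probe sets were called (0.464%), 58 higher and 49 lower. Of the 13 probe sets, 2 were called higher there, 99915_at at 3.58 (adjusted p = 0.00417) and Slco2a1 at 0.90 (adjusted p = 0.00495), and none lower. The other 11 did not pass, and 9 of the 13 had a positive difference. Slco2a1 had 599, 598, 518, 612 and 692 in E+P, against 297, 414, 259.7 and 342 in V, so no animal overlapped. Mycl was at -0.007 and Aqp5 at -0.19 in E+P relative to V, with adjusted p-values of 0.996 and 0.876.

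**Figure D3:**
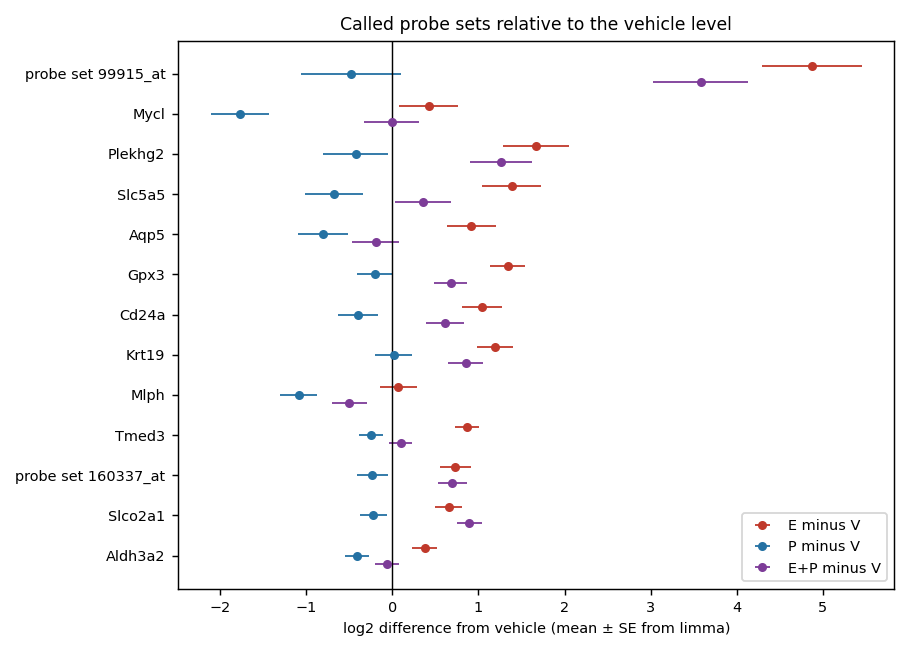
Log2 difference from V, with the standard error from limma, for the 13 probe sets called in E against P; red is E minus V, blue P minus V and purple E+P minus V. E lies at or right of 0 for all 13, from 0.07 to 4.87, and P lies left of 0 for 12 of them.

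Fat pads without epithelium were compared with glands given the same hormones. They also differed in other cells, since the 18 skeletal muscle markers summed to between 1499 and 2718 in E+P, against 7939 to 12945 in the fat pads. In E+P against E+P CFP, 1823 probe sets were called (7.9%), of which 1209 were higher in E+P (5.24%), and 10 of the 13 were among those. Krt19 lay between 966 and 1855 in E+P, against 3.7, 1.9 and 2.5 in the fat pads, and Mlph and Aqp5 were also at the floor in all 3 fat pads. Slc5a5 had 325 to 1073 in E+P, against 134, 81.7 and 129 in the fat pads. Gpx3 had 3509.9 to 5996 in E+P, against 5166, 5532 and 4461 in the fat pads, a difference of -0.11 (adjusted p = 0.840). Aldh3a2 and 160337_at, the others not called, had differences of 0.28 and 0.18. No fat pad was given a single hormone, so the tissue source of the E against P differences was not measured.

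No tested member of the lists of classical targets of the 2 hormones passed the test. Of 16 tested estrogen receptor targets and 10 tested progesterone receptor targets none was called by limma, with medians of 0.17 and 0.20. At an unadjusted p under 0.05, 3 estrogen and 2 progesterone targets were higher in E and none lower, beside 4.25% of all tested genes higher. Among the estrogen targets 2 had all E animals above all P animals, and 1 of the progesterone targets did, beside 2.47% of all tested genes. Esr1, the estrogen receptor itself, had 655, 521, 576 and 502 in E, against 706, 597, 1003 and 691 in P, overlapping levels that differed by -0.39 ± 0.20 (adjusted p = 0.662). The fat pads without epithelium also had Esr1 signal, at 394, 411 and 667. Wnt4, a secreted signal that acts downstream of progesterone, had 715, 936, 688 and 756 in E, against 567, 639.9, 635 and 481 in P, a difference of 0.41 ± 0.25 (adjusted p = 0.727). The progesterone receptor Pgr, its partner signal Tnfsf11, the estrogen target Greb1, Krt14 and the milk genes Csn2 and Wap were too dim to be tested. Areg was not found by its symbol among the probe sets used here.

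Stc2, a secreted glycoprotein on the estrogen list, had 998, 520.0, 664 and 1012 in E, against 312, 379.6, 179.9 and 482 in P. All its E values were above all P values, yet it did not pass, at 1.27 ± 0.31 (adjusted p = 0.175). Ltf, the iron-binding milk protein lactoferrin, had 594, 1099, 937 and 657 in E, against 435, 362, 297 and 531 in P, also without overlap, and differed by 1.00 (adjusted p = 0.196). Stc2 and Ltf were singled out after their values were seen.

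Fkbp5 and Zbtb16, targets that progesterone and glucocorticoid receptors share, were not lower in E. Fkbp5, a cochaperone of steroid receptors, had 619, 812, 398 and 396 in E, against 164, 204, 439 and 222 in P, a difference of 1.15 ± 0.31 with P 3 inside the E range (adjusted p = 0.223). Zbtb16, a zinc finger repressor, had 570.3, 597, 412 and 719 in E, against 283, 394, 909 and 596 in P, and differed by 0.18 ± 0.37 (adjusted p = 0.940). Relative to V it was at 2.06 in E (adjusted p = 0.0185), at 1.87 in P (adjusted p = 0.0923) and at 0.26 in E+P (adjusted p = 0.862). Fkbp5 relative to V was at 1.97 in E (adjusted p = 0.00743), at 0.83 in P (adjusted p = 0.493) and at 0.66 in E+P (adjusted p = 0.412). Tph1, the first enzyme of serotonin synthesis, had 227, 45.2, 138 and 138 in E, against 2.7, 12.4, 60.7 and 3.1 in P. P 3 overlapped E and the other P animals were at the floor, so its difference of 2.58 ± 0.54 is a lower bound (adjusted p = 0.101).

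Cell division genes were higher in E by value but not past the threshold. Of 26 tested mitosis genes 22 had a positive difference, with a median of 0.35, and of 25 DNA replication genes 21 did, with a median of 0.29. None in either list was called by limma. At an unadjusted p under 0.05, 4 and 6 members were higher and none lower, beside 4.25% of all tested genes higher. Pbk, a mitotic kinase, had 117, 167, 131 and 151 in E, against 25.1, 58.4, 17.2 and 69.5 in P, a difference of 1.72 ± 0.33 with no overlap (adjusted p = 0.0535). Uhrf1, which carries DNA methylation marks through replication, had 90.7, 129, 113 and 124 in E, against 34.8, 33.3, 24.0 and 32.1 in P, a difference of 1.88 ± 0.36 (adjusted p = 0.0535). Both stood just outside the threshold and were named after their values were seen. Mki67, the proliferation antigen, had 92.0, 189.8, 97.1 and 129 in E, against 36.2, 86.0, 46.3 and 79.3 in P, a difference of 1.07 ± 0.41 (adjusted p = 0.509). Cdk1, the kinase that starts mitosis, differed by 0.91 ± 0.46 with overlapping groups (adjusted p = 0.653).

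On the side lower in E lay the interferon response list, genes that cells switch on in answer to interferons. All 13 tested members had a negative difference, with a median of -0.57, but none was called by limma. At an unadjusted p under 0.05, 8 were lower in E, beside 4.26% of all tested genes. Iigp1, an interferon-induced GTPase, had 345, 221, 333 and 431 in E, against 1148, 363, 776 and 1285 in P, and differed by -1.31 (adjusted p = 0.386). Igtp, of the same GTPase family, had 147, 195, 164 and 226 in E, against 294, 246, 447 and 604 in P, with no overlap, and differed by -1.05 (adjusted p = 0.329). Igtp was the single member of the list without overlap, beside 2.46% of all tested genes that were lower in E in that way. Iigp1 and Igtp were named after their values were seen. Rsad2, an antiviral enzyme, had 167, 219.6, 190.3 and 265 in E, against 231, 217, 305 and 332 in P, and differed by -0.37 ± 0.27 (adjusted p = 0.780). In P 2 the list scored -0.18, inside the E range of -0.41 to -0.10, while the other P animals scored between 0.36 and 0.68.

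Among the single genes lower in E with the smallest p, named after their values were seen, Rasl12 came first. Rasl12, a small GTPase of the Ras superfamily, had 137, 103, 154 and 56.1 in E, against 288, 331, 225 and 199 in P, a difference of -1.28 ± 0.26 without overlap (adjusted p = 0.0765). Ifi27l2a, an interferon-induced mitochondrial protein, had 1149, 913, 929 and 1942 in E, against 2341, 2688, 2674 and 3653 in P, and Gbp6, an interferon-induced guanylate-binding protein, had 385, 365, 365 and 539 in E, against 856, 582, 1064 and 1412 in P. Their differences were -1.26 ± 0.26 and -1.19 ± 0.25 (adjusted p = 0.0949 for both). Fcgbp had 556, 384, 455 and 626 in E, against 701, 1741, 1115 and 1284 in P. It differed by -1.21 ± 0.27 without overlap (adjusted p = 0.128), and was 4.39 higher in E+P than in the fat pads. Fbxo34, Itgbl1, Ly6e, Nrp1, Ddx60 and Septin6 were also lower in E with a smaller p than Rarres2. Rarres2, the adipokine chemerin, had 598, 684, 724 and 607 in E, against 1217, 1099, 1010.2 and 1389.5 in P, a tight separation of -0.85 ± 0.20 (adjusted p = 0.145).

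Markers of brown and white adipocytes were mostly lower in E by value, while fatty acid synthesis genes went both ways. All 5 tested brown adipocyte markers had negative differences, with a median of -0.62, and none was called by limma. Ucp1, the uncoupling protein of brown fat, had 30.2, 9.7, 32.3 and 6.8 in E, against 104, 42.4, 145 and 89.8 in P. No values overlapped, and with 2 E animals at the floor the difference of -2.08 ± 0.50 is a lower bound of its size (adjusted p = 0.167). Ucp1 also differed by 3.72 in E+P against the fat pads, all 3 at the floor (limma, adjusted p = 5.74e-05). The part of the tissue piece taken in its E against P difference was not tested. Cidea, a lipid droplet protein, had 139.8, 140.1, 202 and 188 in E, against 273, 402, 216 and 241 in P, a difference of -0.74 ± 0.26 (adjusted p = 0.467). In E+P against the fat pads Cidea differed by -0.04. The brown list scored -1.04 to -0.58 in E, -0.13 to 0.12 in P and 0.42 to 0.77 in V, so the 3 groups did not overlap. Both hormones together gave scores between -0.41 and 0.86. Of the 5 brown markers, 2 (Ucp1 and Cidea) had all E animals below all P animals, beside 2.46% of all tested genes. Dio2 differed by -0.17. Among all lists scored, E and P also did not overlap for the estrogen receptor targets, progesterone receptor targets, metalloproteinases and peripheral nerve markers. Progesterone receptor targets nearly touched, with the lowest E score at 0.418 and the highest P score at 0.412. So did metalloproteinases and nerve markers, with highest E scores of 0.0114 and -0.0053 and lowest P scores of 0.0115 and -0.0043. Adipoq differed by -0.45 ± 0.14 with all E animals below all P animals (adjusted p = 0.390), and 15 of 17 adipocyte markers had a negative difference, with a median of -0.09. Of 16 tested fatty acid synthesis genes 10 had a positive difference, with a median of 0.16 and no call by limma. At an unadjusted p under 0.05, 4 were higher (Acly, Acaca, Elovl6 and Slc25a1), beside 4.25% of all tested genes. In the other direction 2 were lower (Insig1 and Pnpla3), beside 4.26%. Acly, which makes the acetyl-CoA for fatty acid synthesis, had 3623, 5518, 3797 and 3217 in E, against 1911, 1547, 3410.0 and 1768 in P, a difference of 0.94 ± 0.32 (adjusted p = 0.419).

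**Figure D4:**
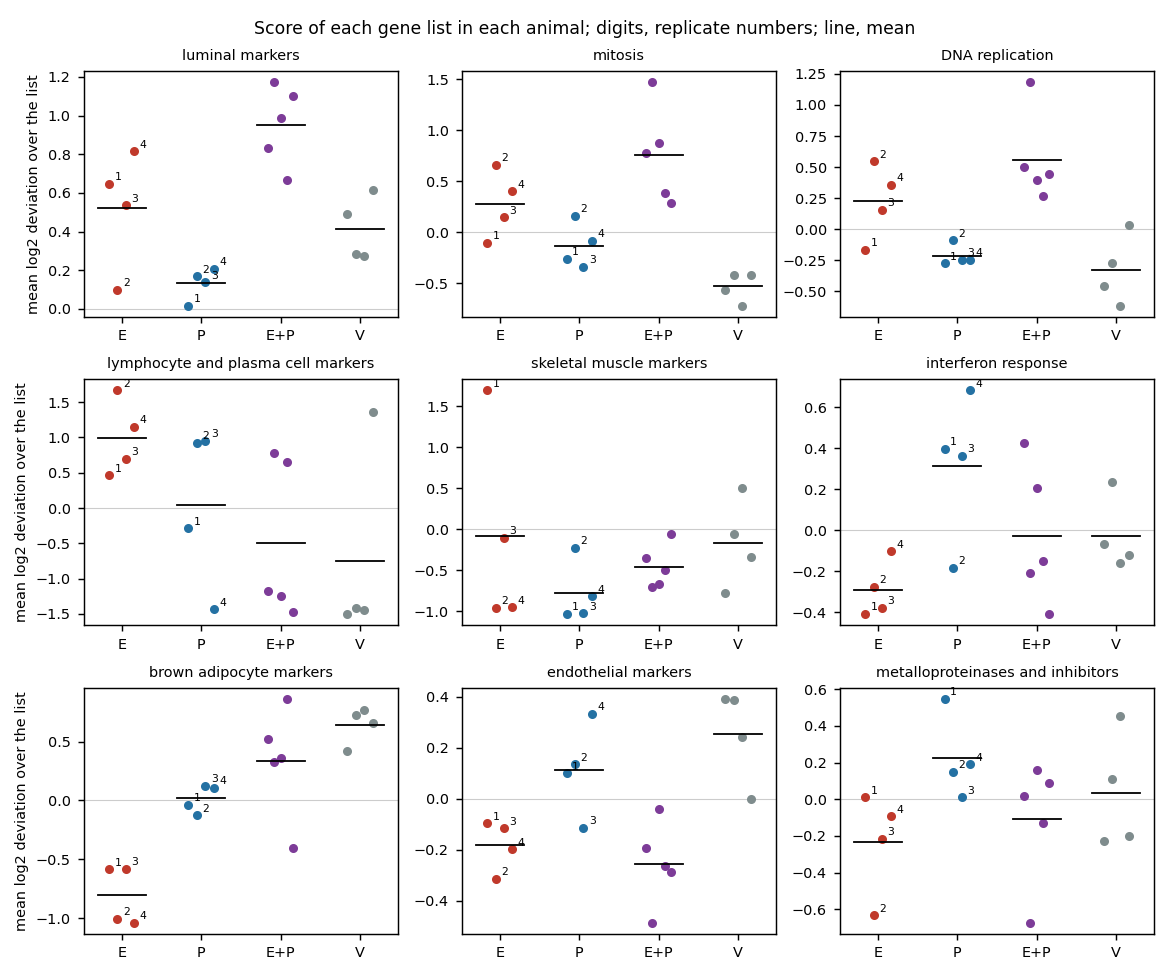
Mean log2 deviation over the tested members of 9 gene lists in each animal, in E, P, E+P and V from left to right, with replicate numbers for E and P and lines at means. The brown adipocyte scores of E, P and V do not overlap, and E 2 lies low in the luminal panel. P 4 lies low in the lymphocyte panel, as do most V animals, and E 1 lies high in the muscle panel.

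Markers of other cells also differed by value. All 23 tested lymphocyte markers had a positive difference with a median of 0.76, which was 0.30 without P 4, and no member's E and P animals were free of overlap. The 18 skeletal muscle markers had a median of 0.59, which was 0.14 without E 1. The 17 endothelial markers had a median of -0.28, with 3 positive, and Cd93, a receptor of vessel walls, had 246, 191, 247 and 221 in E, against 331, 325, 397 and 394 in P, a difference of -0.68 (adjusted p = 0.189). Cd93 was named after its values were seen. None of these lists had a call by limma. At an unadjusted p under 0.05, 3 lymphocyte and 2 muscle markers were higher in E, beside 4.25% of all tested genes. In the endothelial list 5 were lower, beside 4.26%.

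The number of calls depended on single animals. Without P 4 it was 4, without E 4 it was 5, and without E 1, P 2 or P 3 it was 7 each, while without P 1 it was 22, of which 6 were lower in E. Leaving out V 1 or V 2, which changed only the shared spread and the probe sets that passed the filter, gave 8 each. Over the 20 leave-outs the adjusted p reached at most 0.0128 for Gpx3, 0.0128 for Tmed3 and 0.00276 for 99915_at. Under the other planned settings Tmed3 kept its call in 19 of 19, 99915_at in 18 of 18 and Gpx3 in 18 of 19, at an adjusted p of at most 0.0526. Over the leave-outs Mycl kept its call in 17, Slc5a5 and Aqp5 in 16 each, Cd24a in 15, Slco2a1 in 14 and Plekhg2 in 11, with adjusted p-values of at most 0.0577, 0.0673, 0.0738, 0.0673, 0.133 and 0.145. Krt19, 160337_at, Mlph and Aldh3a2 kept theirs in 8, 7, 6 and 5, with adjusted p-values up to 0.184. Without E 1, P 4 and V 4 together, chosen after the data were seen, only 99915_at passed.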

How the data were processed

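Total RNA of 20 animals was hybridised to 3 Affymetrix array types, types A, B and C of the MG-U74 set, per the labels. The deposited values are signal intensities on a linear scale deposited by the authors. The submitters' processing notes name MAS5, with no version. They had been scaled to a trimmed mean between 150.03 and 150.1 before deposit, from the values themselves, and array medians lay between 48.4 and 88.3. The number of animals limits the precision. Groups follow titles and treatment protocols; the description field of the V samples names progesterone. The 3 arrays with the same group and replicate number were taken as 1 animal, which bears on list scores and sums, on the fits that carry a list score and on leaving out animals.

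Here each array was scaled to a common 2% trimmed mean per array type, given a floor at the 25th percentile, and log2 was taken. The floor was 13.6 for type A, 28.6 for type B and 19.8 for type C. Testing needed 3 or more animals above the 50th percentile, at 61.6, 85.7 and 61.8, and 7222 probe sets of type A, 7719 of type B and 8126 of type C met this. No called probe set had passed through E alone. The platform annotation gave 1 gene symbol for 29131 of 36899 probe sets, more than 1 for 724 and no symbol for 6846, beside 198 controls. Limma 3.58.1 in R 4.3.3 was fitted per array type to 5 group means, with an intensity trend, and p-values were adjusted by Benjamini-Hochberg over all tested probe sets together. The script was tested on simulated data. The contrast of E+P with the fat pads was added to those planned. A gene stands for 1 probe set (type A first, then B, then C; then one with no special suffix; then the brightest). Named were the up to 15 largest rises and falls past the threshold without overlap, 4 or fewer members of any list that held a call, and fixed genes. The members, gene lists and motifs were chosen with earlier results of these data known. Other scalings, floors, filters, variance models, covariates, subsets of groups, a replicate block and leaving out each animal were tried.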

Additional observations from a re-analysis of the deposited data

Results flagged for a closer look

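In 4 cases the highest or lowest animal of a group of 4 stood apart from the other 3 by more than Dixon's critical value for the gap over the range. Such gaps also arise by chance, at about 5% of groups looked at. Gclm had 112 in P 2, against 139 to 142 in the other P animals. Adipoq had 6380 in E 2, against 8681 to 9042 in the other E animals. Tph1 had 60.7 in P 3, with the other P animals at the floor of 13.6. Probe set 99915_at had 16.1 in P 1, with the other P animals at that floor, so both of the last gaps are set by the floor.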

How the results depend on the processing

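The 13 calls in E against P became 5 (3 higher, 2 lower) without the brightness filter, 8 (8 higher) without the intensity trend and 20 (2 lower) with array weights. They became 5 (4 higher, 1 lower) with the lymphocyte score in the model and 7 (6 higher, 1 lower) with the skeletal muscle score, while the 13 differences kept a median of 95.9% and 98.7% of their size. The cause of these changes in count was not tested. Leaving out 1 animal gave between 4 and 22 calls, with 4 to 16 higher and 0 to 6 lower, and leaving out E 1, P 4 and V 4 together, added after the data were seen, gave 1, which was higher. The other settings gave between 9 and 17 calls. No called difference changed sign. The log2 Gapdh ratio, -0.44 in E against P, ranged between -0.62 and -0.33 when 1 animal was left out, with the lowest value without P 1 (two-sided exact permutation p = 0.0286). Same-numbered E and P animals did not deviate together (correlations -0.06, 0.05, 0.06 and -0.03, with 1 of 4 matching its own number best), and a fit with the replicate number as a block called 11. Of 755 values of the 19 named genes not called, 6 passed the threshold under another setting. Of 1240 list medians, 27 moved by more than the spread between animals and 42 had the opposite sign. Dim probe sets near the floor give lower bounds only.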

Other observations

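Clock genes lay in opposite directions by value. Arntl, an activator of the clock, had 45.2, 72.2, 57.4 and 87.6 in E, against 31.8, 16.7, 41.9 and 25.8 in P, a difference of 1.21 without overlap (adjusted p = 0.189). Dbp and Hlf, output factors of the clock, were the other way, with Dbp at 261, 152, 267 and 229 in E, against 330.3, 372, 473 and 329.9 in P, and Hlf at 71.4, 60.1, 94.2 and 104 in E, against 147, 169, 184 and 125 in P. Their differences were -0.75 and -0.94 (adjusted p = 0.372 and 0.275). None of the 17 tested clock genes was called by limma. At an unadjusted p under 0.05, 1 was higher and 3 were lower in E, beside 4.25% and 4.26% of all tested genes. Arntl, Dbp and Hlf were named after their values were seen. The labels do not state the hour of collection.

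Ido1, which breaks down tryptophan, had 196, 88.6, 115 and 339.5 in E, against 52.5, 22.9, 21.9 and 41.2 in P, and differed by 2.32 ± 0.52 (adjusted p = 0.128). Arg2, the mitochondrial arginase, had 257, 209.9, 191 and 196 in E, against 78.6, 49.9, 109 and 64.2 in P, and differed by 1.55 ± 0.30 (adjusted p = 0.0720). Neither overlapped and neither passed the threshold. Timp3, an inhibitor of matrix metalloproteinases, had 967, 893, 879 and 1004 in E, against 1118, 1196, 1558 and 1486 in P, and differed by -0.51 (adjusted p = 0.196). Insig1, which holds back lipid synthesis, had 359.8, 159, 219 and 276 in E, against 365, 366, 859 and 564 in P, and differed by -1.06 (adjusted p = 0.196). All genes in this paragraph were named after their values were seen.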
